A study of Mus musculus with 12 samples.

Results

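The genes described here are 9 genes of the NRF2 pathway: Nfe2l2, Keap1, Gclc, Gclm, Txnrd1, Srxn1, Nqo1, Hmox1 and Cat. They were chosen by symbol, as the rows of the count table that carry those names, and they are 9 of the 55450 genes in the table. Total RNA was sequenced from brain and from liver of male mice aged 7 to 9 weeks, with 3 libraries in each of 4 groups. The groups were wild-type brain, Vaultrc5-/- brain, wild-type liver and Vaultrc5-/- liver, where Vaultrc5 is the mouse gene of a small non-coding vault RNA. The titles name the control libraries flx while their genotype label reads wild-type, and the extraction protocol writes Vaultrc5+/+. The labels name no Cre, promoter or strain, and they do not say which animal each library came from or whether a brain and a liver library with one number share an animal. The p-values therefore measure the spread between these libraries, which may in part be technical.

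NRF2, the product of Nfe2l2, is a transcription factor that is held low by KEAP1, an adaptor that presents it to a ubiquitin ligase for degradation. When electrophiles or oxidants modify KEAP1, NRF2 accumulates, pairs with small MAF proteins and binds antioxidant response elements near genes for glutathione synthesis, thioredoxin reduction, quinone reduction and haem breakdown. In liver the pathway is known for its part in the handling of drugs and reactive metabolites, and in brain it is known mainly from glia. Much of the control of NRF2 acts on the protein, which RNA counts do not measure.

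Antioxidant response elements carry the core letters TGACNNNGC, and sites bound by NRF2 with MAF proteins often read TGANTCAGC. Both were searched on either strand of RefSeq promoters (GRCm38.p6, 250 bases before to 50 bases after the RefSeq start), which were present for 7 of the 9 genes, with no entry for Gclc and Hmox1. A stretch can match both patterns at once, where the fourth base is C. TGACNNNGC was found in 4 of the 7 promoters and in 12.4% of all 32851 promoters, and TGANTCAGC in 1 of the 7, that of Srxn1, and in 1.19% of all promoters. The matching stretches are shown because they are where the listed genes share letters. Genes are counted to this pathway in part for such elements, so the choice of genes and the matches are not independent. Each is printed 5′ to 3′ on the strand of transcription, with the matched letters in capitals (where the match is on the opposite strand, the capitals read as GCNNNGTCA). They lie at chr2:75704885-75704913 (minus strand, Nfe2l2), chr3:122245413-122245441 (plus, Gclm), chr10:82859104-82859132 (plus, Txnrd1), chr2:152105542-152105570 (plus, Srxn1, TGACNNNGC) and chr2:152105469-152105497 (plus, Srxn1, TGANTCAGC).
Nfe2l2: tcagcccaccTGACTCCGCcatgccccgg
Gclm: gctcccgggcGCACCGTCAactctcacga
Txnrd1: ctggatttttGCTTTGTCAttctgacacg
Srxn1, TGACNNNGC: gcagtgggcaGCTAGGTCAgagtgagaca
Srxn1, TGANTCAGC: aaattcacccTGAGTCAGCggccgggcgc
The matches began 240 bases upstream of the start in Nfe2l2, 134 in Gclm, 92 in Txnrd1 and 45 in Srxn1 for TGANTCAGC, while the TGACNNNGC match of Srxn1 lay 28 bases downstream of the start. These matches are letters in a sequence and not measured sites.

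The promoter of Srxn1 is shown at greater length because it was the only one of the 7 with TGANTCAGC, and because Srxn1 differed from the other genes in its levels between tissues, described further on. Whether these are related was not tested. It is the plus strand of chr2:152105274-152105523 (GRCm38.p6, from RefSeq), with each TGAGTCA in capitals together with the GC that completes TGANTCAGC in the second.
Srxn1 promoter: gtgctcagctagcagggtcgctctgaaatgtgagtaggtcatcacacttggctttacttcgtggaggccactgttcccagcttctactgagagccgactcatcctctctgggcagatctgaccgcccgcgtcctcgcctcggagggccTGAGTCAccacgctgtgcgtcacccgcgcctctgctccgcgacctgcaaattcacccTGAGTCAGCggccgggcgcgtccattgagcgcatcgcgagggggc
TGAGTCA occurred 2 times in these 250 bases, beginning 102 and 45 bases upstream of the start. These letters, on either strand, were present in 5.20% of all promoters of the same length as searched above.

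The brain libraries held 14844937 to 18567362 counts and the liver libraries 23247425 to 27155478. Vaultrc5 itself had 4, 1 and 4 counts in wild-type brain, 33, 39 and 48 counts in wild-type liver, and 0 counts in all 6 knockout libraries, where 0 allows up to 3 counts. The tissue labels matched marker lists: 5 hepatocyte markers summed to 76102 to 106642 CPM (counts scaled to library size by TMM over the 12 libraries and to one common total) in liver and 0.41 to 2.70 CPM in brain, and 5 neuronal markers to 2806 to 3810 CPM in brain and 27.2 to 35.0 CPM in liver. Liver knockout replicate 2 stood apart from the other liver libraries. It had the highest loading (0.741) on a first principal component that held 43.6% of the variance in liver, and all 13 of 13 macrophage markers were highest there, with a sum of 673 CPM against 273 to 384 CPM in the other 5. Brain wild-type replicate 3 had all 5 of 5 oligodendrocyte markers highest, with a sum of 5130 CPM against 1492 to 2773 CPM in the other 5. In brain the first principal component held 67.3% of the variance and set replicates 1 (loadings -0.536 and -0.441) apart from replicates 2 (0.543 and 0.471) in both genotypes. What these components stand for was not tested.

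In brain, knockout and wild-type libraries did not differ detectably in any of the 9 genes, and in liver they did not either. At an edgeR adjusted p below 0.05, 0 of 9 genes were called in brain, where 0.0% of 18075 tested genes were called, and 0 of 9 in liver, where 0.0% of 15329 were called. Across all genes an unadjusted edgeR p below 0.05 was reached by 122 genes in brain (0.675%) and 536 in liver (3.50%). It was reached by 0 of the 9 genes in either tissue. Where no gene differs a share of 0.05 would be expected, so the test was conservative, most of all in brain. The 0 of 9 in brain therefore says little. DESeq2 called 0 genes in brain and 11 in liver, and edgeR with the replicate number as a block called 0 in brain and 2 in liver, none of them among the 9. Over every setting and every left-out library, the smallest adjusted p of any of the 9 genes from edgeR or DESeq2 was 0.995 in brain and 0.676 in liver. The levels in the account that follows are CPM for replicates 1, 2 and 3 in that order, and differences between genotypes are log2 of knockout over wild type with their 95% interval from the edgeR fit.

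**Figure D1:**
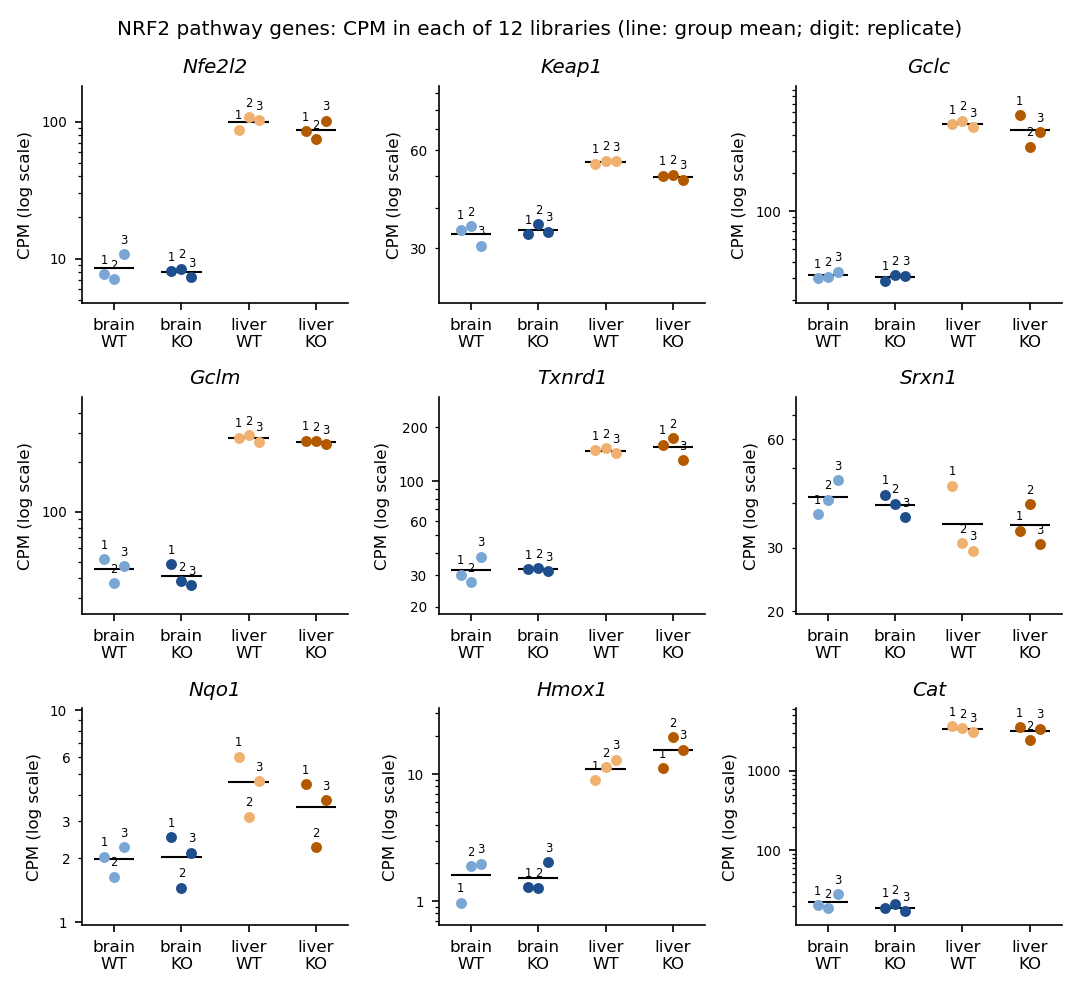
CPM of each of the 9 genes (y axis, log scale) in the 12 libraries, by group (x axis; WT wild type, KO Vaultrc5-/-); each point is 1 library with its replicate number, and each line is the mean of 3. The genotypes overlap in every panel except Keap1 in liver, where the 3 knockout libraries (48.7 to 50.5 CPM) lie below the 3 wild-type libraries (54.7 to 55.7 CPM).

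Nfe2l2 (ENSMUSG00000015839.6, chr2:75675513-75704641, minus strand, GRCm38), which encodes NRF2, was at 7.70, 7.09 and 10.7 CPM in wild-type brain and at 8.10, 8.42 and 7.31 CPM in knockout brain. It was at 87.9, 108 and 102 CPM in wild-type liver and at 85.1, 74.8 and 102 CPM in knockout liver. The genotypes overlapped in both tissues, with brain wild-type replicate 3 the highest brain library and liver knockout replicate 2 the lowest liver library. The difference was -0.10 (95% interval -0.55 to 0.34) in brain and -0.18 (-0.49 to 0.13) in liver. Without liver knockout replicate 2 it was -0.08 in liver, and without brain wild-type replicate 3 it was 0.11 in brain. Over all left-out libraries the liver difference ran from -0.32 to -0.08.

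Keap1 (ENSMUSG00000003308.15, chr9:21229730-21239361, minus strand), the inhibitor of NRF2, was at 34.2, 35.0 and 30.5 CPM in wild-type brain and at 33.1, 35.5 and 33.7 CPM in knockout brain. In liver it was at 54.7, 55.7 and 55.4 CPM in wild type and at 50.1, 50.5 and 48.7 CPM in knockout. It was the one gene of the 9 whose liver groups did not overlap, which is 11.1% of the genes, a share near the 9.62% of all genes tested in liver (5.45% with all knockout libraries lower). In brain the groups overlapped for all 9 genes, where they did not for 4.23% of all genes. The liver difference was -0.14 (95% interval -0.30 to 0.01), with an edgeR p of 0.0699 and an adjusted p of 0.992, so it did not pass the test. Left-out libraries moved the difference from -0.16 to -0.13. In brain the difference was 0.03 (-0.17 to 0.24). Exons of Keap1 overlap an annotated antisense gene, Gm16754, which held 0 to 6 counts, at most 0.740% of their sum.

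The balance between activator and inhibitor was also taken within each library, as the ratio of Nfe2l2 counts to Keap1 counts, which library scaling does not touch. It was 0.260 ± 0.0803 (SD, n = 3) in wild-type brain and 0.233 ± 0.0143 in knockout brain, and 1.80 ± 0.168 in wild-type liver and 1.76 ± 0.313 in knockout liver. The exact two-sided permutation p was 0.9 in each tissue (adjusted over 4 ratio tests, 0.9), where 3 libraries against 3 cannot give less than 0.1. Knockout ratios lay within the range of the wild type in brain, and in liver they ran from below it to above it. The ratio is of counts not divided by exon length. Per kilobase it was 0.321 in wild-type brain and 2.22 in wild-type liver, so Keap1 was the more abundant of the pair in brain and Nfe2l2 the more abundant in liver.

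Gclc and Gclm encode the catalytic and the modifier subunit of glutamate-cysteine ligase, the rate-limiting enzyme of glutathione synthesis. Gclc (ENSMUSG00000032350.9, chr9:77754535-77794485, plus strand) was at 29.7, 30.5 and 33.3 CPM in wild-type brain and at 28.4, 31.4 and 31.1 CPM in knockout brain. The liver libraries held it at 482, 516 and 457 CPM in wild type and at 568, 322 and 416 CPM in knockout. The knockout liver libraries lay on both sides of the wild-type range, with replicate 1 the highest and replicate 2 the lowest of the 6. The coefficient of variation in liver was 28.6% in knockout and 6.13% in wild type, and whether the spreads differ was not tested. The difference was -0.05 (95% interval -0.27 to 0.18) in brain and -0.15 (-0.59 to 0.28) in liver. It was 0.02 in liver without knockout replicate 2, and 0.0145 in brain without wild-type replicate 3, the highest brain library.

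Gclm (ENSMUSG00000028124.15, chr3:122245557-122270732, plus strand) was at 51.8, 37.0 and 46.7 CPM in wild-type brain and at 48.1, 37.9 and 36.0 CPM in knockout brain. In liver it was at 282, 293 and 267 CPM in wild type and at 271, 269 and 258 CPM in knockout. The genotypes overlapped in both tissues, and knockout replicate 3 was the lowest library in each. In brain Gclm was higher in replicate 1 than in replicate 2 of both genotypes, the libraries that the first component set apart. Across the brain libraries Gclm was highest in wild-type replicates 1 and 3 and knockout replicate 1. The astrocyte marker sum was highest in the same libraries (812, 751 and 694 CPM). Of the 5 astrocyte markers, 1 was highest in wild-type replicate 1. The choroid plexus marker sum set these libraries further apart, at 29.1, 47.0 and 55.0 CPM. In wild-type replicate 2 and knockout replicates 2 and 3 it was 3.32, 5.42 and 7.00 CPM. The part of these in the Gclm values was not tested. The difference was -0.16 (-0.54 to 0.23) in brain and -0.07 (-0.27 to 0.13) in liver. In brain it was -0.29 when knockout replicate 1 was left out and -0.05 when wild-type replicate 1 was, and in liver left-out libraries moved it from -0.10 (wild-type replicate 3) to -0.04 (wild-type replicate 2). Gclm was the only one of the 9 genes with counts that were not whole, in 11 of 12 libraries. Its exons overlap those of Gm17494 on the other strand and of the pseudogene Gm6061, and Gm17494 held 12.4% to 20.2% of the counts of the 3 genes together in brain and 0.101% to 0.297% in liver. How reads were divided among them was not tested, so the brain level of Gclm is the less certain.

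The ratio of Gclc to Gclm counts was 0.704 ± 0.125 (SD, n = 3) in wild-type brain and 0.761 ± 0.148 in knockout brain. In liver it was 1.71, 1.76 and 1.71 in the wild-type libraries and 2.10, 1.19 and 1.62 in the knockout libraries. The wild-type livers lay close together, while knockout replicate 1 was above and replicates 2 and 3 below all of them. The exact permutation p was 0.5 in brain and 0.7 in liver (each 0.9 after adjustment).

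**Figure D2:**
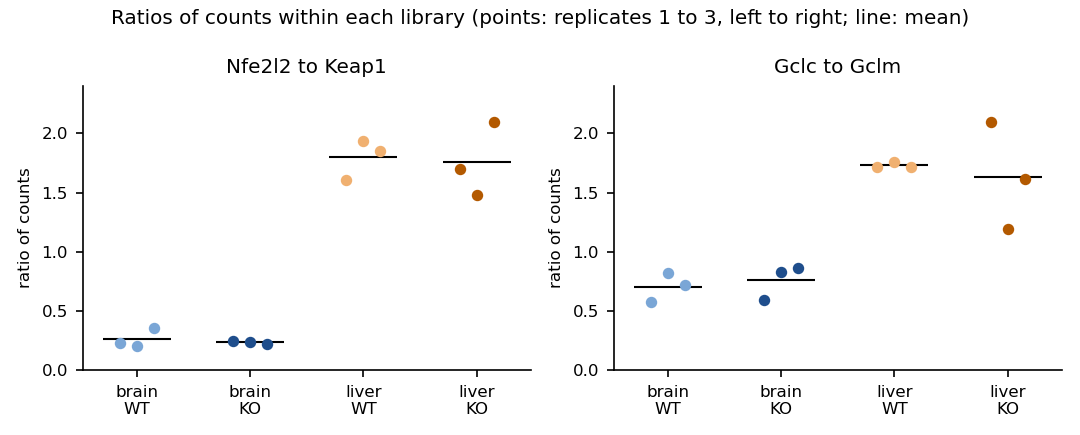
Ratio of counts within a library (y axis, from 0) for Nfe2l2 to Keap1 (left) and Gclc to Gclm (right), by group (x axis); points are replicates 1 to 3 from left to right and lines are means. Both ratios are higher in liver, and the Gclc to Gclm ratio runs from 1.19 to 2.10 in knockout liver against 1.71 to 1.76 in wild-type liver.

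Txnrd1 (ENSMUSG00000020250.10, chr10:82833951-82897712, plus strand), the cytosolic thioredoxin reductase, was at 30.2, 27.3 and 38.0 CPM in wild-type brain and at 32.4, 32.8 and 31.6 CPM in knockout brain. Liver levels were 149, 152 and 143 CPM in wild type and at 159, 173 and 130 CPM in knockout. In both tissues one genotype spanned the range of the other: the wild type in brain and the knockout in liver. The difference was 0.01 (95% interval -0.31 to 0.34) in brain and 0.07 (-0.20 to 0.33) in liver. Without liver knockout replicate 2, the highest liver library, it was -0.03, and without brain wild-type replicate 3, the highest brain library, it was 0.17.

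Srxn1 (ENSMUSG00000032802.8, chr2:152105516-152111376, plus strand), sulfiredoxin, which repairs over-oxidised peroxiredoxins, was at 37.2, 40.7 and 46.2 CPM in wild-type brain and at 42.0, 39.7 and 36.5 CPM in knockout brain. The liver libraries held it at 44.5, 30.8 and 29.5 CPM in wild type and at 33.5, 39.7 and 30.6 CPM in knockout. Wild-type liver replicate 1 was the highest liver library and lay among the brain libraries. The difference was -0.08 (95% interval -0.34 to 0.19) in brain and -0.01 (-0.44 to 0.42) in liver. Without wild-type replicate 3, the highest brain library, it was 0.0199 in brain. In liver it was 0.21 without wild-type replicate 1 and -0.13 without knockout replicate 2.

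Nqo1 (ENSMUSG00000003849.8, chr8:107388225-107403206, minus strand), a quinone reductase widely used as a readout of NRF2 activity, was at 2.04, 1.64 and 2.26 CPM in wild-type brain and at 2.52, 1.45 and 2.12 CPM in knockout brain. Liver levels were 6.02, 3.14 and 4.61 CPM in wild type and at 4.47, 2.25 and 3.76 CPM in knockout. Replicate 2 was the lowest of its group in all 4 groups. The difference was 0.03 (95% interval -0.63 to 0.69) in brain and -0.39 (-1.13 to 0.36) in liver, and -0.16 in liver without knockout replicate 2. Over all left-out libraries the liver difference ran from -0.60 to -0.14. In liver Nqo1 was lower in knockout in 3 of 3 same-numbered pairs. With the replicate number as a block the edgeR p went from 0.265 to 0.0692 (adjusted p 0.803). With those of Hmox1, these intervals were the widest of the 9 genes.

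Hmox1 (ENSMUSG00000005413.8, chr8:75093621-75100589, plus strand), haem oxygenase 1, which breaks down haem and is also high in macrophages that clear red cells, was at 0.97, 1.89 and 1.96 CPM in wild-type brain and at 1.28, 1.28 and 2.03 CPM in knockout brain. In liver it was at 8.95, 11.3 and 12.9 CPM in wild type and at 11.1, 19.5 and 15.6 CPM in knockout. The liver groups overlapped, since knockout replicate 1 lay below wild-type replicates 2 and 3, and knockout replicate 2 was the highest library. The liver difference was 0.49 (95% interval -0.07 to 1.04), the largest in size of the 9 in liver, with an edgeR p of 0.0758 and an adjusted p of 0.992. Over left-out libraries it ran from 0.27, without knockout replicate 2, to 0.69. With the replicate number as a block the edgeR p was 0.0135 and the adjusted p 0.740. Of the macrophage markers 13 of 13 were higher in knockout than in wild-type liver by edgeR (none called; none at 0 in all liver libraries), and their sum was 273 to 370 CPM in wild type and 384, 673 and 291 CPM in knockout. The order of the libraries was not the same for both: replicate 2 was highest for the markers and for Hmox1, replicate 3 had the next highest Hmox1 with markers below the wild-type mean, and replicate 1 had the next highest markers with Hmox1 near the wild-type mean. Red cell markers were higher in 5 of 5 (sum 107 to 151 CPM in wild type and 136 to 163 CPM in knockout; median difference 0.95) and endothelial markers in 5 of 5 (114 to 135 and 132 to 147 CPM; median 0.15), with none called. Cholangiocyte markers were higher in 4 of 4 (12.4 to 17.4 and 8.97 to 23.5 CPM; median 0.20), also with none called. The part of these cell types in the Hmox1 values was not tested, and in bulk RNA a change in the number of cells of a type and a change in RNA per cell cannot be told apart. In brain the Hmox1 difference was -0.07 (-0.94 to 0.80), and 0.10 without wild-type replicate 3.

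Cat (ENSMUSG00000027187.10, chr2:103453849-103485160, minus strand) encodes catalase, the peroxisomal enzyme that breaks down hydrogen peroxide. It was at 20.5, 18.9 and 28.2 CPM in wild-type brain and at 18.97, 21.1 and 17.3 CPM in knockout brain, and at 3638, 3456 and 3057 CPM in wild-type liver and 3565, 2444 and 3393 CPM in knockout liver. Brain wild-type replicate 3 was the highest brain library and liver knockout replicate 2 the lowest liver library. The difference was -0.24 (95% interval -0.66 to 0.17) in brain and -0.10 (-0.51 to 0.30) in liver. Without these libraries it was -0.04 in brain and 0.04 in liver.

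**Figure D3:**
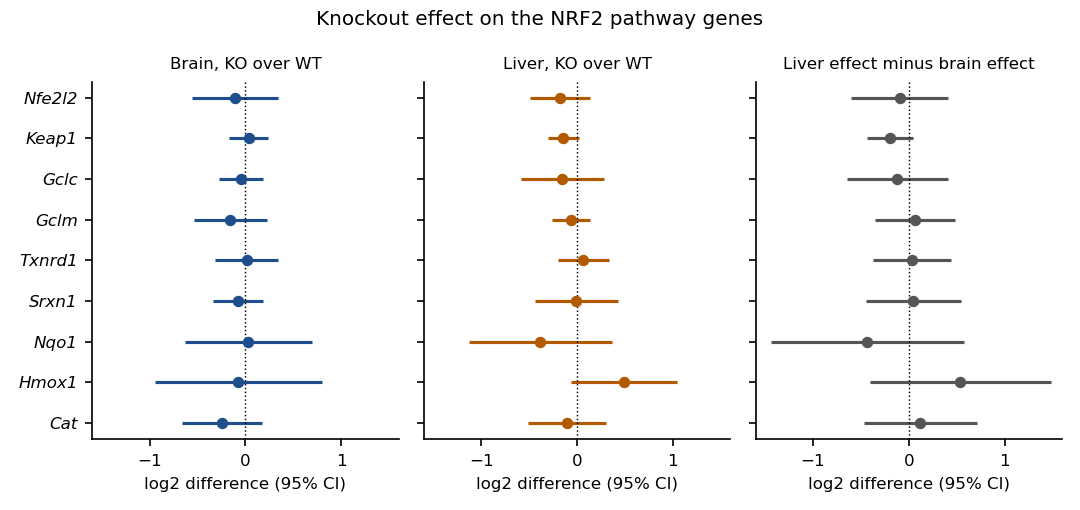
log2 difference (x axis) of knockout over wild type in brain (left) and liver (middle), and the liver effect minus the brain effect (right), for the 9 genes (y axis); points are edgeR estimates and lines their 95% intervals. Every interval includes 0, from the narrowest, that of Keap1 in liver (-0.30 to 0.01), to the widest, that of Nqo1 in the right panel (-1.44 to 0.57).

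Across the 9 genes the median difference was -0.07 in brain, with 6 of 9 genes lower in knockout, and -0.10 in liver, with 7 of 9 lower. Over all tested genes the median was -0.01 in brain, with 9353 of 18075 lower, and 0.01 in liver, with 7471 of 15329 lower. The cell type markers of brain are given beside this, with none of them called. Choroid plexus markers were higher in knockout in 1 of 5, with a median difference of -0.25. Their sum was 3.32 to 47.0 CPM in wild type and 5.42 to 55.0 CPM in knockout. Neuronal markers were higher in knockout in 4 of 5 (median 0.05) and endothelial markers in 2 of 5 (median -0.004). Oligodendrocyte markers were lower in knockout in 5 of 5 (sum 1492 to 5130 CPM in wild type and 1645 to 2773 CPM in knockout; median difference -0.57). Astrocyte markers were higher in 1 of 5 (525 to 812 and 534 to 694 CPM; median -0.22), and macrophage and microglia markers in 7 of 8 tested of 13 (62.8 to 100.4 and 70.9 to 107.6 CPM; median 0.16), with Clec4f, Marco and Vsig4 at 0 in brain. Single libraries moved these counts. Brain wild-type replicate 3 was the highest of the 6 brain libraries for 5 of the 9 genes (Nfe2l2, Gclc, Txnrd1, Srxn1 and Cat), and without it 3 of 9 genes were lower and 6 higher in knockout, with a median of 0.02. Liver knockout replicate 2 was the lowest liver library for 4 genes (Nfe2l2, Gclc, Nqo1 and Cat) and the highest for 2 (Txnrd1 and Hmox1). Without it 6 genes were lower and 3 higher, with a median of -0.08. Compared by replicate number in liver, Nfe2l2, Keap1, Gclm and Nqo1 were lower in knockout in 3 of 3 pairs and Hmox1 was higher in 3 of 3, though the third pair of Nfe2l2 was nearly equal (102.5 and 102.2 CPM). With the block none of these 5 genes passed, with edgeR adjusted p from 0.740 to 0.910. Oligodendrocyte markers in the first library and macrophage markers in the second moved with these values, and the summed hepatocyte markers were lowest in the second, at 76102 CPM against 88252 to 106642 CPM in the other 5 liver libraries. Their part in the gene values was not tested.

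**Figure D4:**
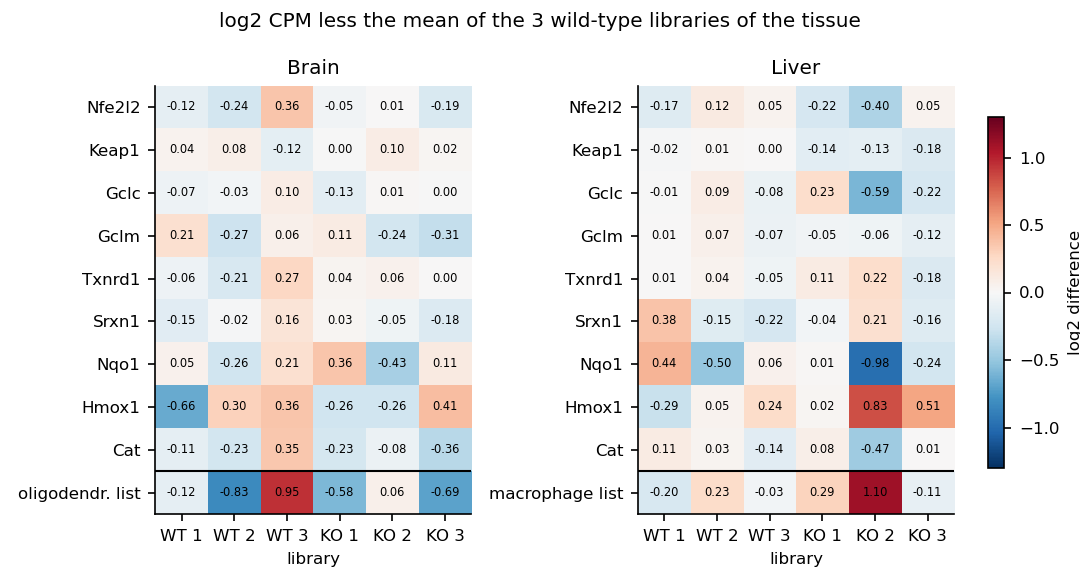
log2 CPM of each gene in each library (columns) less the mean of the 3 wild-type libraries of its tissue, with the summed oligodendrocyte markers under the brain panel and macrophage markers under the liver panel. Brain WT 3 is the highest brain library for 5 genes and for the oligodendrocyte list (0.95), and liver KO 2 is low for Nqo1 (-0.98) and Gclc (-0.59) and high for Hmox1 (0.83) together with the macrophage list (1.10).

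The effect of the knockout in liver was compared with that in brain by an interaction term over the 12 libraries. By edgeR 0 of 9 genes were called, where 0.0% of 20141 genes were called (489 at an unadjusted p below 0.05; DESeq2 called 1 gene and the blocked fit 2, none of them among the 9). The smallest unadjusted p among the 9 was 0.102, for Keap1, with a liver effect minus brain effect of -0.20 (95% interval -0.44 to 0.05). It was -0.11 without brain wild-type replicate 3. For Hmox1 the term was 0.54 (-0.41 to 1.48), and 0.33 without liver knockout replicate 2. For Nqo1 it was -0.43 (-1.44 to 0.57), and -0.20 without that library.

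Tissue, unlike genotype, separated most of the 9 genes. Between wild-type libraries 8 of 9 were higher in liver by edgeR, where 78.6% of 18850 genes were called in either direction and 34.7% as higher in liver. Between knockout libraries 7 of 9 were higher in liver, where 78.7% of genes were called and 35.2% as higher in liver. Scaling matters here: with library totals in place of TMM factors the median gene moved toward brain by 0.84 in log2 in wild type and 0.88 in knockout. Genes called higher in brain and in liver in wild type then went from 8275 and 6542 to 11635 and 3997, which is 61.7% and 21.2% of those tested. In knockout the shares under library totals were 62.1% and 20.6%. Under library totals 6 of the 9 genes were higher in liver and Srxn1 was higher in brain in wild type, and 6 were higher in liver and 2 (Keap1 and Srxn1) higher in brain in knockout.

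Cat differed most, with a log2 difference of liver over brain of 7.22 (95% interval 6.65 to 7.80; 149-fold; edgeR adjusted p 1.67e-07) in wild type and 7.36 in knockout. Gclc followed with 3.95 (3.67 to 4.23; 15.5-fold; adjusted p 1.05e-07) and 3.85 in knockout. Nfe2l2 itself was higher in liver by 3.54 (3.11 to 3.97; 11.6-fold; adjusted p 1.23e-06) and by 3.46 in knockout. Each of these 3 genes had every liver library above every brain library. Hmox1 was higher in liver by 2.77 in wild type and 3.33 in knockout, Gclm by 2.63 and 2.72, and Txnrd1 by 2.21 and 2.26, and these also had no overlap between tissues. All 6 of these genes were still called higher in liver under library totals.

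Keap1, Nqo1 and Srxn1 were the genes whose tissue result depended on a setting. Keap1 was higher in liver by 0.73 (95% interval 0.50 to 0.95; edgeR adjusted p 0.000233) in wild type and by 0.55 in knockout, but under library totals it was higher in brain by 0.11 (adjusted p 0.308) and by 0.33 (adjusted p 0.0108). Nqo1 was higher in liver by 1.20 (0.51 to 1.90; adjusted p 0.00647) in wild type, falling to 0.36 (adjusted p 0.296) under library totals. In knockout its difference was 0.79 and did not pass (adjusted p 0.0645), while without liver knockout replicate 2 it was 1.05 (adjusted p 0.0202) and under library totals it turned to 0.08 higher in brain. With the replicate block the Nqo1 difference in knockout passed (edgeR adjusted p 0.0302). Srxn1 was the only gene with a higher mean in brain. That difference was 0.25 (-0.17 to 0.67; adjusted p 0.232) in wild type and 0.18 (adjusted p 0.203) in knockout, and did not pass. It passed in wild type without liver wild-type replicate 1 (0.45, adjusted p 0.0234) and under library totals (1.09, adjusted p 0.000720), as it did in knockout under library totals (1.07, adjusted p 7.41e-05).

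Levels were compared between genes per kilobase of annotated exon, as mean CPM per kilobase. In wild-type brain Srxn1 was highest at 14.7 ± 1.61 (SD, n = 3), followed by Cat at 8.62 ± 1.91, Gclc at 8.28 ± 0.507, Gclm at 7.18 ± 1.19 and Keap1 at 7.08 ± 0.514, and neighbours among these last 4 overlapped. Txnrd1 at 4.50, Nfe2l2 at 2.24, Nqo1 at 1.27 and Hmox1 at 0.918 came after them, and the last pair overlapped. In wild-type liver Cat was at 1295 ± 114 CPM per kilobase, Gclc at 129 ± 7.90, Gclm at 44.6 ± 2.12, Nfe2l2 at 26.2 ± 2.70 and Txnrd1 at 20.9 ± 0.694, with no overlap between neighbours. Srxn1 at 12.4 ± 2.95 and Keap1 at 11.8 ± 0.116 overlapped, and Hmox1 at 6.32 ± 1.15 and Nqo1 at 2.96 ± 0.929 were lowest.

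The rest of the pathway was described with a list of 74 other genes, grouped by role, that were chosen with earlier results of these data known. Between genotypes 0 of 63 tested list genes were called in brain and 0 of 70 in liver, and 0 of 73 for the interaction. The median difference was -0.06 in brain and -0.05 in liver, with 46 of 63 and 49 of 70 genes lower in knockout. Over all tested genes the medians were -0.01 and 0.01, with 9353 of 18075 and 7471 of 15329 genes lower. These counts of the list were not repeated with single libraries left out. In liver 7 of 70 list genes (10.0%) had groups that did not overlap, against 9.62% of all tested genes, and in brain 1 of 63 (1.59%), against 4.23%. The smallest unadjusted edgeR p values in brain were those of Gsta4, a glutathione transferase that takes lipid aldehydes (difference -0.31, edgeR p 0.0479), Gpx3, a secreted glutathione peroxidase (-0.55, edgeR p 0.0691), and Gpx4, which reduces lipid peroxides in membranes (-0.21, edgeR p 0.0837). In liver they were those of G6pdx, the first enzyme of the pentose phosphate pathway (0.49, edgeR p 0.0154), the drug-metabolising Cyp2a5 (-0.38, edgeR p 0.0257) and the aldo-keto reductase Akr1b8 (0.73, edgeR p 0.0312). None of the 6 passed adjustment, with edgeR adjusted p of 0.992 or above. Liver levels of G6pdx averaged 5.13 ± 0.456 CPM (SD, n = 3) without and 7.15 ± 0.627 CPM with the knockout, with no overlap between the groups, and Akr1b8 at 1.55 ± 0.324 and 2.57 ± 0.585 CPM.

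Between tissues 69 of 72 tested list genes were called in wild type, 57 higher in liver and 12 higher in brain (49 and 16 under library totals), where 78.6% of all tested genes were called and 34.7% as higher in liver. Under library totals 21.2% of all tested genes were called higher in liver and 61.7% higher in brain, and the counts by role that follow stand against the shares of their own scaling. The knockout libraries gave 57 and 12 again (47 and 15 under library totals, where 20.6% and 62.1% of all genes were called higher in liver and in brain). Of the 24 genes of conjugation, reduction and export, 21 were higher in liver, such as the glutathione transferase Gsta3, at 0.696 ± 0.175 CPM in wild-type brain and 981 ± 199 CPM in wild-type liver, and 3 were higher in brain, such as the export pump Abcc1, at 25.1 ± 4.78 and 4.204 ± 0.815 CPM. All 5 thioredoxin and peroxiredoxin genes were higher in liver, among them Prdx1, at 40.6 ± 4.96 CPM in brain and 600 ± 35.9 CPM in liver. All 7 haem and iron genes were higher in liver in wild type, among them the ferritin light chain gene Ftl1, at 68.1 ± 0.670 and 2077 ± 59.6 CPM, though under library totals 4 were called higher in liver and 1 higher in brain. The call of Blvra was near the threshold (edgeR adjusted p 0.0459), and with the replicate block its unadjusted edgeR p was 0.0549. Of 9 other peroxide and superoxide enzymes 7 were called, all higher in liver, but under library totals 5 were called higher in liver and 2 (Sod2 and Prdx2) higher in brain. In this group Gpx1 differed most, at 15.8 ± 1.93 and 992 ± 17.5 CPM.

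Regulators and the genes that supply NADPH and glutathione were called in both directions. Of 14 tested regulators 7 were higher in liver and 6 in brain (5 and 7 under library totals). Maff, a small MAF partner, was at 0.471 ± 0.200 CPM in wild-type brain and 6.61 ± 3.69 CPM in wild-type liver, and Gsk3b, a kinase that marks NRF2 for degradation independently of KEAP1, was at 276 ± 31.7 and 111 ± 6.15 CPM. Of 6 NADPH genes 5 were higher in liver (4 under library totals), with Idh1 at 18.8 ± 4.42 and 456 ± 37.8 CPM, and G6pdx was higher in brain, at 19.04 ± 5.10 and 5.13 ± 0.456 CPM. Of 4 tested glutathione genes 2 were higher in liver, among them glutathione synthetase Gss at 6.61 ± 1.52 and 57.3 ± 8.68 CPM. The 2 higher in brain were Slc3a2, the heavy chain of the cystine transporter, at 45.3 ± 2.98 and 34.8 ± 5.17 CPM, and Slc7a11, its light chain. Slc7a11 was higher in brain by 9.15 in log2 in wild type (edgeR adjusted p 3.19e-07) and 8.34 in knockout (8.54e-06). It was also called under library totals, and had 3 counts or fewer in some library compared. All 3 remaining induced genes were higher in liver, among them the esterase gene Esd at 17.1 ± 2.34 and 132 ± 10.6 CPM.

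**Figure D5:**
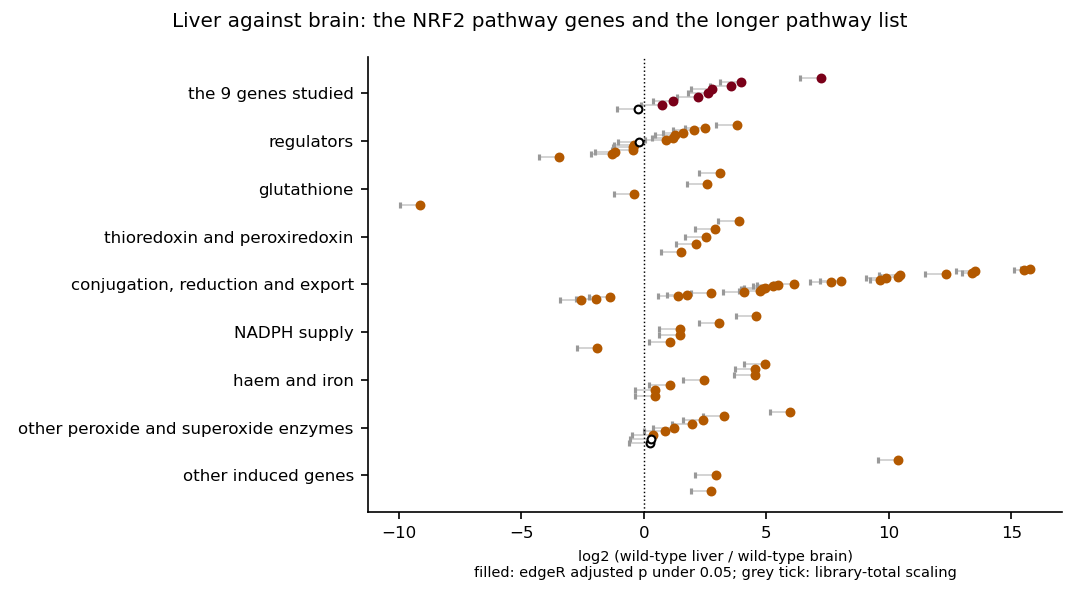
log2 of wild-type liver over wild-type brain (x axis) for the 9 genes and for the list genes by role (y axis); filled points passed edgeR at an adjusted p below 0.05, open points did not, and grey ticks are the same value under library totals. Of the 9 genes 8 lie to the right of 0, up to Cat at 7.22, while under library totals Keap1 joins Srxn1 to the left of 0, and the regulators lie on both sides.

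The genes whose pattern over the 12 libraries was most like that of Nfe2l2 were found by the root mean square difference of log2 CPM, each gene less its own mean, among 13680 genes tested in both tissues. The 5 closest were Rnf128 (0.126), Glud1 (0.136), Wbp1l (0.138), Pde4c (0.139) and Acadl (0.144), with a liver minus brain difference of 3.38 to 3.55 in mean log2 CPM, beside 3.49 for Nfe2l2. The difference between tissues enters the measure. Of the other 8 genes Gclc was the closest, at rank 140 (0.282). Gclm followed at rank 503 and Hmox1 at rank 601, while Srxn1 (rank 8013) and Cat (rank 8212) were farthest.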

How the data were processed

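The authors deposited one table of expected counts with a row for each gene and a column for each of the 12 libraries, and no normalization. Per the submitters' processing notes, cutadapt, STAR and mm10 were used, with no versions given. Which program counted the reads, and with what strand setting, is not given in the sources used here, and by library 5.06% to 5.71% of values held fractions. Counts were rounded. All 55450 gene identifiers and symbols matched GENCODE M21 (GRCm38), which gave coordinates and exon lengths. Promoters came from RefSeq (GRCm38.p6).

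Groups and replicate numbers came from the sample titles. Models were fitted in R 4.3.3 with edgeR 4.0.16 (glmQLFit with robust estimation, then glmQLFTest). TMM scaled the libraries, filterByExpr chose the genes (minimum count 10, total 15), and calls needed a Benjamini-Hochberg adjusted p below 0.05. Each comparison was fitted on its own 6 libraries, the interaction on 12, and p-values were adjusted over all genes tested. All 9 genes passed the filter in every comparison. DESeq2 1.42.0, other scalings and filters, the replicate block and leaving out each library were alternatives. The scripts were tested on simulated data. Intervals are 95%.

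Same-numbered wild-type and knockout livers deviated together (correlations 0.298, 0.268 and 0.341 over 13531 genes), so by rule the numbers pair the livers. The pairing comes from the data, since the labels do not state it. The 9 genes and the lists were chosen with earlier results of these data known. Genes of the list were named by rule: those called between genotypes or, as none was, the 3 with the smallest p in each tissue. The rule also named, in each role, the called gene highest in each tissue with over 3 counts in every library compared. Slc7a11, Sod2, Prdx2 and Blvra were named outside this rule.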

Additional observations from a re-analysis of the deposited data

How the results depend on the processing

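For the 9 genes, no setting and no left-out library gave a call between genotypes or for the interaction. Numbers of all genes called did move: in liver from 0 to 11 with DESeq2, 4 with no filter and 2 with the replicate block, and over left-out libraries from 0 to 1 (1 without wild-type replicate 2). For the interaction they moved from 0 to 1 with DESeq2 and 2 with the replicate block. With the replicate block the Srxn1 liver difference turned to 0.00884 (adjusted p 0.993), and the Nqo1 tissue difference in knockout passed (-0.77 for brain over liver, adjusted p 0.0302), as it did with 12 libraries in 1 fit (adjusted p 0.0465). Same-numbered brain libraries correlated at 0.678, 0.697 and -0.014, so replicates 1 and 2 deviated together and replicate 3 did not. By rule the brain numbers as a set were not taken as pairs. With the block the common dispersion in brain (the spread between libraries in the fit) fell from 0.0587 to 0.0184. Genes at an unadjusted edgeR p below 0.05 rose from 122 to 406, with 0 called. The smallest such p among the 9 genes was 0.158, for Gclm. The unblocked brain fit thus carries spread that same-numbered libraries share. The block changed no other call of the 9 genes.

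Under library totals brain over liver turned to 0.11 (wild type) and 0.33 (knockout) for Keap1 and to 0.0835 for Nqo1 in knockout.

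Leaving out 1 library turned the sign of genotype differences that had not passed. In brain they ranged from -0.22 to 0.11 for Nfe2l2, -0.0174 to 0.0740 for Keap1, -0.0828 to 0.0145 for Gclc, -0.0834 to 0.17 for Txnrd1, -0.15 to 0.0199 for Srxn1, -0.14 to 0.24 for Nqo1 and -0.34 to 0.10 for Hmox1. In liver they ranged from -0.37 to 0.0174 for Gclc, -0.0342 to 0.16 for Txnrd1, -0.13 to 0.21 for Srxn1 and -0.19 to 0.0395 for Cat. For the interaction they ranged from -0.27 to 0.0277 for Nfe2l2, -0.36 to 0.0528 for Gclc, -0.0915 to 0.14 for Txnrd1, -0.0641 to 0.26 for Srxn1 and -0.0562 to 0.27 for Cat. The knockout difference in the log2 ratio of Nfe2l2 to Keap1 ranged from -0.27 to 0.12 in brain and -0.18 to 0.0759 in liver, and that of Gclc to Gclm from -0.0318 to 0.28 in brain and -0.32 to 0.0898 in liver. The cause was not tested. Nqo1 rested on 33 to 107 counts a library. The 95% intervals of Hmox1 and Nqo1 do not exclude the differences that lie inside them.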
